A study of Rattus norvegicus with 20 samples.

Results

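The genes described here are 47 genes of the cell cycle and of DNA replication, chosen by symbol. They were read in embryonic rat testis on 20 Affymetrix arrays, and 44 of the 47 had a probe set that the platform annotation gives to that gene alone. Cdc6, Rrm2 and Tpx2 had none. Where a gene had several probe sets, the one with the highest mean log2 intensity over all arrays stood for it. The 44 genes were 8 of G1 control, 11 of S phase and 25 of mitosis, and all 44 passed the filter on low values, out of 11666 genes tested and 14217 genes with a named probe set.

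A dividing cell first commits to division in G1, where D-type cyclins with Cdk4, then cyclin E with Cdk2, free the E2F factors from the retinoblastoma proteins, and where the inhibitors Cdkn1a (p21) and Cdkn1b (p27) hold these kinases back. E2F turns on the S phase genes: the Mcm proteins that form the replicative helicase, the licensing factor Cdt1 and its inhibitor Gmnn (geminin), the sliding clamp Pcna, and the enzymes that make nucleotides, Rrm1 and Tyms. The genes of mitosis come on later, in G2, and many are repressed in G1 by the DREAM complex at CHR elements, often beside CCAAT boxes bound by NF-Y. In the fetal testis the Sertoli cells proliferate as the cords form, and the germ cells divide before they enter mitotic arrest later in fetal life.

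The study asked how the antiandrogenic fungicide vinclozolin alters the transcriptome of the developing testis. All animals were Sprague-Dawley rats. Dams received daily injections from E8 to E14 of either the vehicle DMSO or vinclozolin at 100 mg/kg/day, and testes were taken at E13, E14 and E16, with 2 arrays for each treatment and stage; the E13 testes were thus taken before the injections ended. For culture, gonads of E13 embryos, kept with the mesonephros attached, were held for 3 days with 50 µM vinclozolin in DMSO or with DMSO alone, or with 0.5 µM flutamide, a pharmaceutical antiandrogen, in ethanol or with ethanol alone. In each embryo 1 gonad received the compound and the opposite gonad its vehicle, and the mesonephros was removed before RNA was taken. Each of these 4 culture groups had 2 arrays. The labels name both arrays of each group as biological replicates but give no animal or pool for them, so a p-value reflects no more than array-to-array spread. RNA came from whole gonads, and in such bulk samples a change in the share of dividing cells and a change in RNA per cell cannot be told apart.

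The authors' scaling put the 12 in utero arrays at a trimmed mean of 210.1, the culture arrays with vinclozolin or DMSO at 218.1 and those with flutamide or ethanol at 107. The ratio of 3' to 5' beta-actin signal, which rises as RNA degrades, lay between 1.73 and 3.47 for in utero testes and between 2.67 and 3.90 for cultures with vinclozolin or DMSO, but between 9.08 and 11.06 for those with flutamide or ethanol. Markers of testis cells were present: the summed intensity of the 7 measured Sertoli markers was 1950 to 4734 at E13, 4174 to 13075 at E14 and 7460 to 8642 at E16. That of the 8 Leydig markers was 1377 to 1529, 1760 to 2227 and 14294 to 24806. The Sertoli hormone Amh read 1554 on vehicle 1 of E14 and 4893 to 5796 on the other E14 arrays. Erythroid markers (7 measured) summed to 931 to 5977 at E13, 3551 to 13453 at E14 and 15804 to 28438 at E16, and the 7 measured mesonephros markers to 1333 to 2148, 1163 to 2371 and 865 to 901. The 4 measured germ cell markers summed to 309 to 432, 262 to 719 and 258 to 404. Xist, an RNA of the inactive X chromosome in female cells, was high on both E13 arrays numbered 1 (759 and 896) and low on those numbered 2 (20.4 and 17.9); at E14 it was 175, 184, 32.0 and 490. The Y-linked gene Eif2s3y was lower on the E14 arrays (903 to 1249) than on the E13 arrays (2363 to 3182) and the E16 arrays (2364 to 3496). In culture Xist read 168 to 212 and Eif2s3y 672 to 765 on the flutamide and ethanol arrays. On the vinclozolin and DMSO arrays Eif2s3y read 3115 to 3330, and Xist 5.10 to 5.40 on all but 1 vinclozolin array, which read 113. These values differ between stages and between the culture sets, and their part in the differences below was not tested.

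The promoters of the 2 larger classes differed in the letters they hold. A few are shown, from called mitotic members that rose and called S phase members that fell between E14 and E16. The called members of these classes that went the other way (Cdc20, Cenpt, Aurka, Plk1 and Pcna) are not shown. Whether the motifs go with the direction of change was not tested. Sequences are from RefSeq (GRCr8), on the gene's own strand, from 150 bases before to 10 bases after the annotated start, with motifs in capitals. The CHR element was searched as TTTGAA and as its variant TTCGAA. The E2F core was searched as TTCCCGC and as its variant TTGGCGC, and the CCAAT box by the letters of its name. Each was searched on both strands, so a motif on the opposite strand appears as its reverse complement (the CCAAT box then reads ATTGG). The mitotic genes shown are the kinase Cdk1, its partner cyclin B2 (Ccnb2), the proliferation marker Mki67 (Ki-67), the cytokinesis kinesin Kif23 and the condensin subunit Smc2.
Cdk1, chr20:19265143-19265302, plus strand: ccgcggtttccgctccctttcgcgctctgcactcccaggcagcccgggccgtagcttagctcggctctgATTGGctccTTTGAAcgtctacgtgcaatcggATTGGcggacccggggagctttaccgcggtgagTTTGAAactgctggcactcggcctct
Ccnb2, chr8:79981649-79981808, minus strand: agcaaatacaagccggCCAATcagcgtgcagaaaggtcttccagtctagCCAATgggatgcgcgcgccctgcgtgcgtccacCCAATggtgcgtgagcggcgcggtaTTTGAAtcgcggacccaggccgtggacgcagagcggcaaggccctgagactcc
Mki67, chr1:199952584-199952743, minus strand: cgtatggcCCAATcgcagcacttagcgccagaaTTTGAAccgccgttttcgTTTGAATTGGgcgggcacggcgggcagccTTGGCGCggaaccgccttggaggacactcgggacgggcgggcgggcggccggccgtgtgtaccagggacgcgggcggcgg
Kif23, chr8:71320575-71320734, minus strand: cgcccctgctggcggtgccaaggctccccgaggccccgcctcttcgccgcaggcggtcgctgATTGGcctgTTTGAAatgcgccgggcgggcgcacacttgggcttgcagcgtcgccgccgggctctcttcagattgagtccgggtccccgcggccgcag
Smc2, chr5:71602255-71602414, plus strand: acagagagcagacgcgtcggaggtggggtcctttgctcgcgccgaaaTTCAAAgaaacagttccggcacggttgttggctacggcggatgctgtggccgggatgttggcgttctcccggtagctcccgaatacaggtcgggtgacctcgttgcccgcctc
The S phase genes shown are 4 subunits of the Mcm helicase.
Mcm3, chr9:30733737-30733896, minus strand: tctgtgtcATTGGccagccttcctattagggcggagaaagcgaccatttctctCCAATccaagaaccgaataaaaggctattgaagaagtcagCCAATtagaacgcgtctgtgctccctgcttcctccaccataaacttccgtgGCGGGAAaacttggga
Mcm5, chr19:13488663-13488822, plus strand: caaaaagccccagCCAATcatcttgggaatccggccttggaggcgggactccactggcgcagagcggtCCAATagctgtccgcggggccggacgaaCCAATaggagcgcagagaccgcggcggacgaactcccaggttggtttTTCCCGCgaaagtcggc
Mcm6, chr13:42404343-42404502, minus strand: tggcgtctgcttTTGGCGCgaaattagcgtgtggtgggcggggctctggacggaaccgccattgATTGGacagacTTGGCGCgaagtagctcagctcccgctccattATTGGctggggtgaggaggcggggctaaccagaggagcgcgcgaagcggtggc
Mcm7, chr12:22163169-22163328, minus strand: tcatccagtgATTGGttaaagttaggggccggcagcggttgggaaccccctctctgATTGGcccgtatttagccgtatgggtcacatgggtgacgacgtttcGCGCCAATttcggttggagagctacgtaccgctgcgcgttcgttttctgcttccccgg

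Over the whole 300-base window (250 before to 50 after the start), 38 members had a sequence. A CHR element stood in 15 of 22 mitotic promoters (68.2%), in 3 of 10 S phase promoters (30%) and in 0 of 6 promoters of G1 control, against 19.5% of all 27457 windows of that length. The E2F core was found in 8 of 10 S phase promoters (80%), in 4 of 22 mitotic promoters (18.2%) and in 6.67% of all windows. The motif TTGGCGC read backwards can overlap a CCAAT box, as in Mcm7; with only E2F cores clear of a CCAAT box the shares were 80% for S phase, 18.2% for mitosis and 6.24% of all windows. CCAAT boxes stood in 77.3% of the mitotic and 70% of the S phase promoters against 37.7% of all. A CHR element together with a CCAAT box, the pair seen in Cdk1, Ccnb2, Mki67 and Kif23 above, stood in 59.1% of the mitotic promoters against 7.83% of all. The other genes of the same processes, not among the 47, held a CHR element in 73.3% of 60 mitotic promoters and an E2F core in 53.5% of 43 S phase promoters, or in 48.8% with cores clear of a CCAAT box. A match of letters is a description of the window and not a measured binding site.

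**Figure D1:**
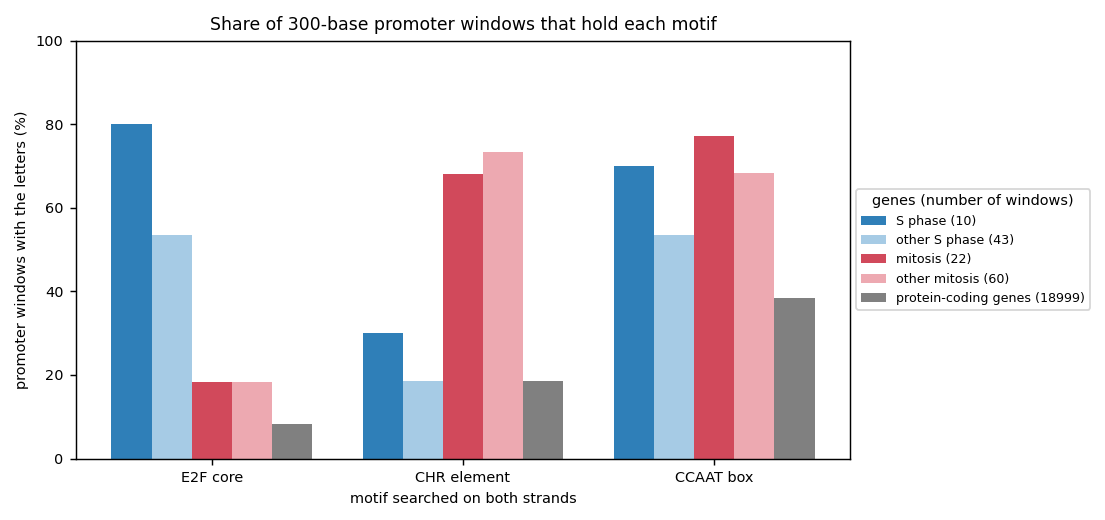
Share of 300-base promoter windows (y axis, percent) that hold the E2F core, the CHR element or the CCAAT box, for S phase and mitotic members, for the other genes of both processes, and for all protein-coding genes (grey). The E2F core stood in 80% of S phase members and the CHR element in 68.2% of mitotic members, against 8.33% and 18.5% of protein-coding genes.

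The first comparisons were between stages, each over 4 arrays a stage (vehicle and vinclozolin averaged), and a member was called where the adjusted p of limma was under 0.05. From E13 to E14 the mitotic genes moved down where they moved: 9 of 25 fell and 0 rose, led by Cenpf, Smc2, Bub1 and Mki67. Of the 11 S phase genes 3 fell (Rrm1, Pcna, Tyms) and 1 rose (Cdt1), and of the 8 genes of G1 control 3 rose (Ccnd2, Ccnd3, Cdk2) and 0 fell. In all, 16 of 44 members were called, 4 higher and 12 lower at E14, where 25.1% of all 22526 probe sets tested were called (13.1% higher, 12% lower). The median log2 difference was -0.20 for mitosis, -0.10 for S phase and 0.16 for G1 control, against 0.07 over all probe sets.

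From E14 to E16 the classes parted. Of the mitotic genes 13 rose and 4 fell, of the S phase genes 1 rose (Pcna) and 5 fell (Cdt1, Mcm6, Mcm5, Mcm3, Mcm7), and of G1 control 6 fell and 0 rose. In all, 29 of 44 members were called, 14 higher and 15 lower at E16, where 41.5% of all probe sets were called (18.3% higher, 23.2% lower). Median log2 differences were 0.33 for mitosis, -0.32 for S phase and -0.60 for G1 control, against -0.06 over all probe sets. The 2 steps share the E14 arrays, so a gene low on those arrays falls in the first and rises in the second; each step's values are therefore given side by side below and no agreement between them is counted. The step from E13 to E16, which does not use the E14 arrays, called 7 members: Ccnd1, Mcm6, Cdkn1a, Ccne1 and Cdt1 were lower and Mad2l1 and Nusap1 higher at E16, where 18.7% of all probe sets were called (9.45% higher, 9.3% lower). The 7 calls became 3 without vehicle 2 or without either vinclozolin array of E16, 4 without vehicle 2 of E13 and 12 without vehicle 1 of E16. The share of all probe sets called in these fits is not given here.

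**Figure D2:**
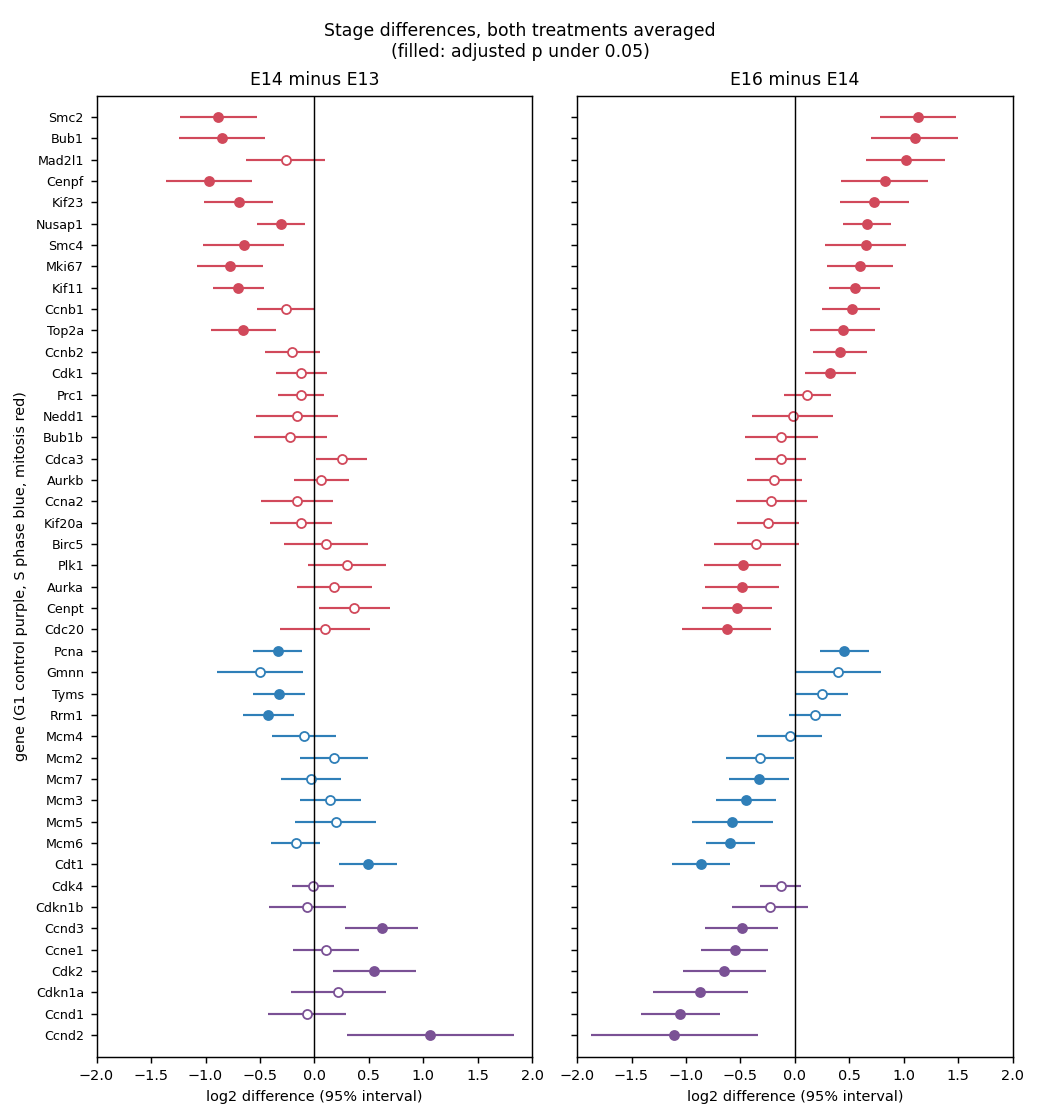
Log2 difference (x axis) of each of the 44 members (y axis) for E14 minus E13 and E16 minus E14, with 95% intervals from limma; filled dots are members with an adjusted p under 0.05. Between E13 and E14 the called mitotic genes lie below 0, and between E14 and E16 the called genes of G1 control lie below 0 while 13 mitotic genes lie above it.

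Array values below are intensities in the order vehicle 1, vehicle 2, vinclozolin 1, vinclozolin 2 for each stage. Among the genes of G1 control, cyclin D1 (Ccnd1), which carries growth signals to Cdk4, read 622, 496, 449 and 425 at E13, 607, 404, 423 and 467 at E14, and 284, 191, 215 and 193 at E16. All 4 arrays of E16 lay under all 8 earlier arrays. It was lower at E16 than at E14 by a log2 difference of -1.05 (SE 0.17, adjusted p 0.000169) and than at E13 by -1.12 (SE 0.17, adjusted p 0.00022). Both other tested probe sets for Ccnd1 were also lower at E16 than at E14 (-1.02 and -1.95).

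Cyclin D2 (Ccnd2), which serves the same kinase, read 1047, 239, 1366 and 981 at E13, 2779, 1573, 1032 and 1519 at E14, and 1090, 416, 860 and 776 at E16. One E13 array, vehicle 2, stood far below the rest, and the stages overlapped. The difference was 1.07 (SE 0.36, adjusted p 0.0403) for E14 minus E13 and -1.11 (SE 0.36, adjusted p 0.0214) for E16 minus E14. The first call was lost in 5 of the 8 fits that leave out 1 array, that without vehicle 2 of E13 among them, with differences from 0.55 to 1.58. The second was lost in 4 of 8, without vehicle 1 or vinclozolin 2 of E14 or replicate 2 of either E16 group.

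Cyclin D3 (Ccnd3) read 1361, 1435, 1435 and 1172 at E13, 2395, 1994, 2201 and 1765 at E14, and 1703, 1440, 1341 and 1434 at E16. The E14 arrays were above all others. It rose by 0.62 (SE 0.16, adjusted p 0.00989) and then fell by 0.49 (SE 0.16, adjusted p 0.0205), the second call being lost without replicate 1 of either E14 group, without vehicle 2 or without vinclozolin 1 of E16. Cdk2, the kinase that cyclin E activates, read 377, 264, 342 and 236, then 405, 467, 515 and 407, then 212, 328, 257 and 337. Again the E14 arrays were the highest. Its differences were 0.55 (SE 0.18, adjusted p 0.0348) and -0.65 (SE 0.18, adjusted p 0.00881). The first was lost without replicate 2 of either E13 group, without vehicle 2 or without vinclozolin 1 of E14.

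Cyclin E1 (Ccne1) read 350, 427, 324 and 414 at E13, 398, 396, 449 and 386 at E14, and 335, 247, 237 and 279 at E16. All E16 arrays lay under the E14 arrays, with a log2 difference of -0.55 (SE 0.14, adjusted p 0.00611). Between E13 and E16 it was -0.45 (adjusted p 0.0407), lost without replicate 2 of either E13 group and without any E16 array but vehicle 1. That call was also lost under quantile normalization. The inhibitor Cdkn1a read 202, 236, 295 and 161 at E13, 239, 237, 239 and 321 at E14, and 152, 127, 123 and 134 at E16. The 4 arrays of E16 were below every earlier array. It fell by 0.87 between E14 and E16 (SE 0.21, adjusted p 0.00294), and its difference from E13 to E16 was -0.65 (SE 0.21, adjusted p 0.0356). The E13 to E16 call was lost in 6 of the 8 fits that leave out 1 array, all but those without vinclozolin 2 of E13 or vehicle 1 of E16. Under quantile normalization it was lost as well. Cdk4 and Cdkn1b passed in none of the 3 stage comparisons.

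In S phase, the licensing factor Cdt1 read 714, 857, 699 and 744 at E13, 979, 1021, 1295 and 986 at E14, and 747, 534, 506 and 548 at E16. The E14 arrays stood above all others. Cdt1 rose by 0.49 (SE 0.13, adjusted p 0.00995) and then fell by 0.86 (SE 0.13, adjusted p 6.85e-05). Its fall of 0.37 from E13 to E16 (adjusted p 0.0499) was lost in 6 of 8 fits that leave out 1 array, all but those without vehicle 1 of E13 or of E16. Under quantile normalization this fall was not called. The rise from E13 to E14 was not called when both E13 arrays numbered 1, which were high in Xist, were left out. Geminin (Gmnn), which binds and blocks Cdt1, passed neither test, with -0.50 and then 0.39.

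Of the Mcm helicase, Mcm6 read 2344, 2580, 2249 and 2540 at E13, 1755, 2267, 2088 and 2559 at E14, and 1293, 1400, 1431 and 1549 at E16. No E16 array reached an earlier one. Mcm6 fell between E14 and E16 by 0.60 (SE 0.11, adjusted p 0.00036), and between E13 and E16 by 0.77 (SE 0.11, adjusted p 8.51e-05). Mcm5 read 855, 1100, 1230 and 1001 at E14 and 961, 583, 553 and 737 at E16, a difference of -0.57 (SE 0.18, adjusted p 0.0153). Mcm3 read 1043, 1308, 1460 and 1148 at E14 and 1115, 798, 765 and 951 at E16, a difference of -0.45 (SE 0.13, adjusted p 0.0121). In both, vehicle 1 of E16 was the highest of its stage and overlapped E14. Mcm7 read 2527, 2893, 2896 and 2771 at E14 and 2777, 1930, 2010 and 2154 at E16, a difference of -0.33 (SE 0.13, adjusted p 0.0488), and here too vehicle 1 of E16 lay among the E14 arrays. The Mcm7 call was lost in 7 of the 8 fits that leave out 1 array, all but that without vehicle 1 of E16. The calls of Mcm5 and Mcm3 were each lost in 4, without vehicle 2 or vinclozolin 1 of E14 and without vehicle 2 or vinclozolin 1 of E16. Mcm2 and Mcm4 passed neither test.

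The clamp Pcna went the other way. It read 4672, 5846, 4838 and 5900 at E13, 4170, 4592, 4200 and 3810 at E14, and 6539, 5695, 5479 and 5305 at E16. The E14 arrays were the lowest. It fell by 0.34 (SE 0.11, adjusted p 0.0291) and then rose by 0.45 (SE 0.11, adjusted p 0.00276). Rrm1, the large subunit of ribonucleotide reductase, read 1312, 1669, 1510 and 1844 at E13 and 1214, 1199, 1041 and 1222 at E14, without overlap. Its fall was 0.42 (SE 0.11, adjusted p 0.0112). Thymidylate synthase (Tyms) read 244, 286, 276 and 324 at E13 and 233, 276, 194 and 191 at E14, with overlap. Its fall was 0.33 (SE 0.11, adjusted p 0.0448). Neither passed between E14 and E16. The falls of Pcna, Rrm1 and Tyms from E13 to E14 were each lost without replicate 2 of either E13 group; that of Pcna was also lost without vehicle 1 or vinclozolin 2 of E14, and that of Tyms without any E14 array but vehicle 2.

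Among the mitotic genes, Mki67 read 1622, 2088, 1552 and 1886 at E13, 846, 1255, 870 and 1219 at E14, and 1806, 1507, 1556 and 1420 at E16. Every E14 array lay below every other array in utero. Mki67 fell by 0.78 (SE 0.14, adjusted p 0.00124) and rose by 0.60 (SE 0.14, adjusted p 0.00318). With Cenpf it was 1 of 2 members whose first call held in every alternative run.

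Cenpf, a kinetochore protein of G2 and mitosis, read 869, 1262, 762 and 1305 at E13, 432, 606, 422 and 629 at E14, and 619, 916, 1121 and 1129 at E16. The E14 arrays lay below all E13 arrays, and vehicle 1 of E16 fell among the E14 arrays. The differences were -0.97 (SE 0.19, adjusted p 0.00171) and 0.82 (SE 0.19, adjusted p 0.00231). Smc2, a core subunit of the condensin that compacts chromosomes, read 801, 976, 842 and 1188, then 399, 623, 400 and 645, then 935, 1235, 1145 and 1191. The E14 arrays were the lowest. The differences were -0.88 (SE 0.17, adjusted p 0.0015) and 1.13 (SE 0.17, adjusted p 7.24e-05). Smc4, the other core subunit, gave -0.65 (SE 0.18, adjusted p 0.0134), lost without replicate 1 of either E14 group and without both E13 arrays numbered 1, and 0.65 (SE 0.18, adjusted p 0.00753).

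The spindle checkpoint kinase Bub1 read 1241, 1908, 1188 and 1841 at E13, 686, 1015, 668 and 1030 at E14, and 1697, 1996, 1743 and 1776 at E16. The E14 arrays were again the lowest, and the differences were -0.85 (SE 0.19, adjusted p 0.00413) and 1.10 (SE 0.19, adjusted p 0.000245). Mad2l1, which with Bub1b blocks the anaphase-promoting complex, read 276, 355, 333 and 373 at E13, 246, 319, 319 and 226 at E14, and 451, 719, 650 and 508 at E16. All E16 arrays exceeded all earlier arrays. Its rise was 1.02 between E14 and E16 (SE 0.17, adjusted p 0.000229), and between E13 and E16 the difference was 0.76 (SE 0.17, adjusted p 0.0053). The other 2 tested probe sets for Mad2l1 gave smaller rises from E14 to E16, 0.56 and 0.21. From E13 to E16 they gave 0.158 and 0.085. The call from E13 to E16 was lost when both E13 arrays numbered 1, which were high in Xist, were left out.

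The spindle kinesin Kif11 read 725, 838, 790 and 854 at E13, 523, 580, 372 and 495 at E14, and 687, 713, 721 and 762 at E16, with no overlap of E14 with either stage. Its differences were -0.70 (SE 0.11, adjusted p 0.000453) and 0.55 (SE 0.11, adjusted p 0.000893). A second probe set for Kif11, the one of larger variance, gave -0.49 and 0.40, and its second difference was not called. Kif23 read 730, 855, 719 and 654, then 401, 621, 309 and 524, then 749, 754, 701 and 818. E14 was again lowest, with differences of -0.70 (SE 0.15, adjusted p 0.00352) and 0.73 (SE 0.15, adjusted p 0.00104). A second probe set for Kif23, the one of larger variance, gave -0.33 and 0.16, and neither difference was called. Nusap1, a microtubule-binding protein of the spindle, read 1037, 1259, 971 and 1166 at E13, 827, 1011, 872 and 855 at E14, and 1482, 1473, 1358 and 1355 at E16. The E16 arrays were above all others, with a rise of 0.66 (SE 0.11, adjusted p 0.000132). Its fall of 0.31 from E13 to E14 (adjusted p 0.0417) was lost without replicate 2 of either E13 group. This call was also lost without any E14 array but vehicle 2, under quantile normalization and with the probe set of largest variance. Nusap1's rise of 0.36 from E13 to E16 (adjusted p 0.0249) was lost without replicate 1 of either E13 group and without any E16 array. A second probe set for Nusap1 gave -0.07 from E13 to E14 and 0.47 from E14 to E16. Top2a, the topoisomerase that untangles chromosomes, gave -0.65 (SE 0.14, adjusted p 0.00373) and 0.44 (SE 0.14, adjusted p 0.0205), the second lost without replicate 1 of either E14 group or vinclozolin 2 of E16. The second call was also lost under quantile normalization.

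Cdk1, the kinase that drives entry into mitosis, read 1758, 1965, 1805 and 2050 at E13, 1722, 1847, 1930 and 1486 at E14, and 2006, 2550, 2171 and 2040 at E16. E13 and E14 overlapped and E16 lay above E14. Its difference was -0.12 (SE 0.11, adjusted p 0.456) from E13 to E14 and 0.33 (SE 0.11, adjusted p 0.0262) from E14 to E16. The second call was lost in 4 of 8 fits that leave out 1 array (without vehicle 1 or vinclozolin 2 of E14, or vehicle 2 or vinclozolin 1 of E16) and under quantile normalization. Its partners cyclin B1 (Ccnb1) and B2 rose by 0.52 (SE 0.13, adjusted p 0.00362) and 0.41 (SE 0.12, adjusted p 0.01).

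The 4 mitotic genes that fell from E14 to E16 were Cdc20, Cenpt, Aurka and Plk1. Cdc20, which activates the anaphase-promoting complex, read 603, 993, 1188 and 936 at E14 and 870, 475, 466 and 586 at E16, with a difference of -0.63 (SE 0.19, adjusted p 0.0164). The stages overlapped, and of the 5 tested probe sets for Cdc20, 1 other gave a like value (-0.58) and 3 lay near 0 (-0.07, -0.11 and -0.11). Aurora A (Aurka), a kinase of the spindle poles, read 462, 713, 740 and 568 at E14 and 414, 440, 421 and 454 at E16, without overlap. It fell by 0.48 (SE 0.16, adjusted p 0.024). The mitotic kinase Plk1 read 568, 679, 831 and 596 at E14 and 573, 409, 444 and 465 at E16, with vehicle 1 of E16 among the E14 arrays. It fell by 0.48 (SE 0.17, adjusted p 0.0302). The kinetochore protein Cenpt read 139, 176, 366 and 225 at E14 and 126, 101, 168 and 191 at E16, with overlap and a difference of -0.53 (SE 0.15, adjusted p 0.0108). The Cenpt call was lost without vinclozolin 1 of E14 and under quantile normalization. The calls of Cdc20, Aurka and Plk1 were each lost without vehicle 2 of E14 and without vinclozolin 1 of E14 or of E16. That of Aurka was also lost without vehicle 1 of E16, that of Cdc20 without vehicle 2 of E16, and that of Plk1 without replicate 2 of either E16 group. Ccna2, Aurkb, Bub1b, Cdca3, Birc5, Kif20a, Prc1 and Nedd1 were called in no stage comparison.

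**Figure D3:**
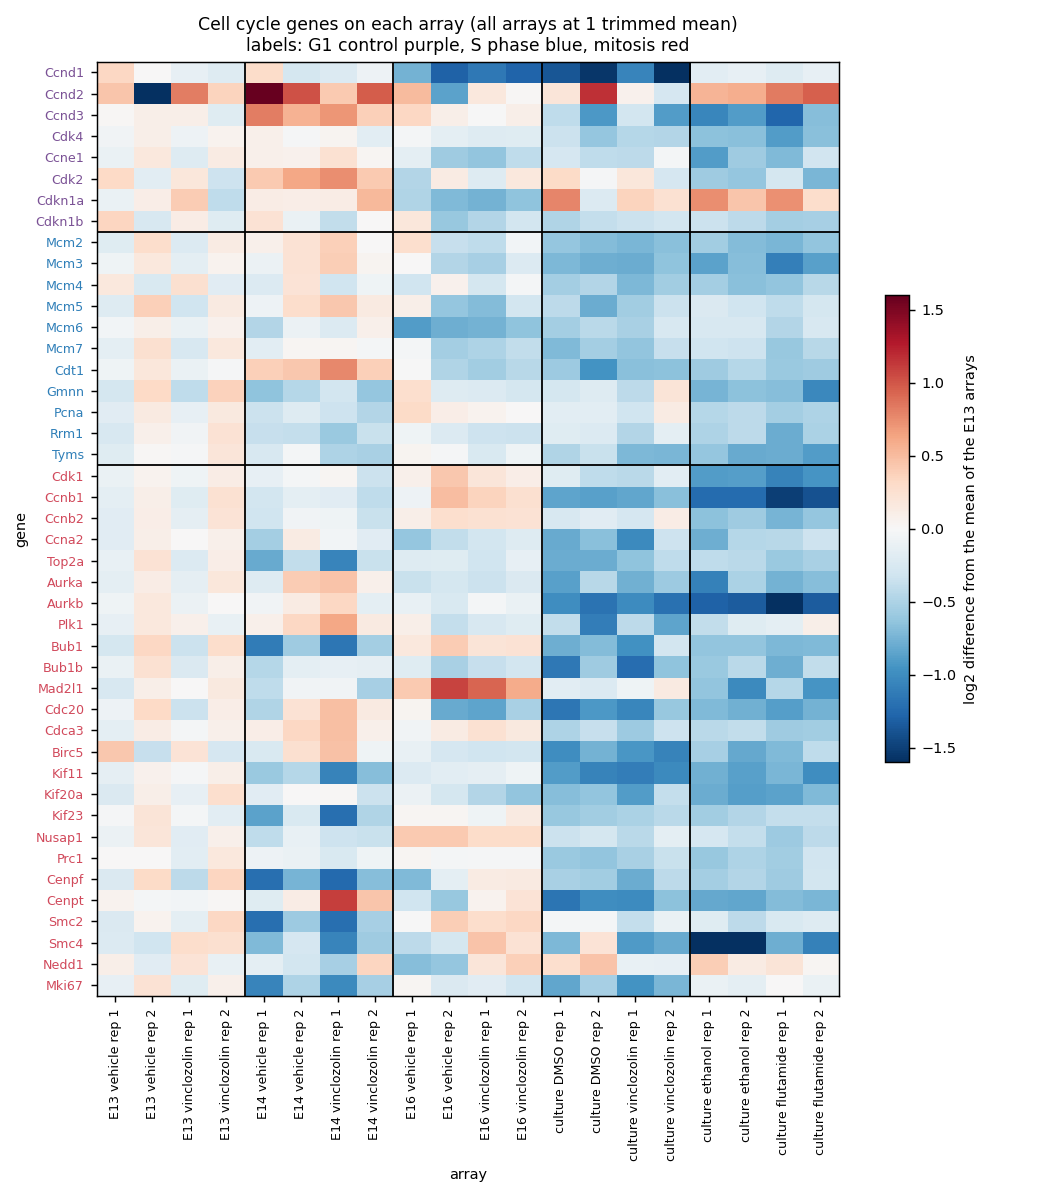
Log2 difference of each member (y axis, grouped as G1 control, S phase and mitosis) from its mean over the 4 E13 arrays, for each of the 20 arrays (x axis), after all arrays were brought to 1 trimmed mean. The E14 columns are blue for Mki67, Cenpf, Smc2, Bub1 and Kif11, the E16 columns are blue for Ccnd1 and Mcm6 and red for Mad2l1, and the culture columns are blue for most genes.

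With both treatments averaged, most calls rest on 4 arrays a stage. The counts that follow are given without the share of all probe sets called in the same fit. Whether a loss of calls was particular to these genes cannot be read from them. In the vehicle groups alone, with 2 arrays a stage, 3 members were called from E13 to E14, 10 from E14 to E16 and 3 from E13 to E16. Leaving out the E13 arrays numbered 1 gave 16 calls from E13 to E14 (3 higher, 13 lower) and 7 from E13 to E16 (0 higher, 7 lower). Leaving out vehicle 1 and vinclozolin 2 of E14, taken as the arrays of that stage higher in Xist, gave 14 calls from E13 to E14 and 26 from E14 to E16. On the Xist values given above, vehicle 2 of E14, which stayed in, read 184 against 175 on vehicle 1.

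The balance of mitosis against S phase was also read within each array, as the mean log2 intensity of the 25 mitotic members minus that of the 11 S phase members. Its absolute size depends on the probe sets, and only its change between arrays carries meaning. It was -0.70 to -0.60 on the E13 arrays (mean -0.64 ± 0.05, SD, n = 4), -0.91 to -0.76 at E14 (-0.84 ± 0.08, SD, n = 4) and -0.72, -0.40, -0.24 and -0.38 at E16 (-0.44 ± 0.20, SD, n = 4). The E14 arrays lay below all E13 arrays and below all E16 arrays. Vehicle 1 of E16 lay below the E13 arrays, while the other 3 arrays of E16 lay above them. The rise from E14 to E16 was 0.40.

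This rise was not seen in a wider set of genes. In 59 other mitotic genes and 44 other S phase genes the same difference was 0.03 ± 0.01 at E13, 0.06 ± 0.04 at E14 and 0.09 ± 0.05 at E16 (SD, n = 4 each), with overlapping arrays. Gene by gene these lists held large changes in both directions. From E14 to E16, 21 other mitotic genes rose and 16 fell; the kinesin Kif18a rose by 1.66 (SE 0.17, adjusted p 3.67e-06), the kinetochore gene Cenpk by 1.15 and the checkpoint kinase Ttk by 1.12, while separase (Espl1) fell by 1.02 (SE 0.12, adjusted p 9.52e-06), the condensin II subunit Ncaph2 by 1.02 and cyclin F (Ccnf) by 0.88. Of the other S phase genes 13 rose and 11 fell: Rpa3, a subunit of the single-strand binding protein RPA, rose by 1.12, cyclin E2 (Ccne2) by 1.04 and the clamp loader Rfc4 by 0.89, and the uracil glycosylase Ung fell by 1.01, Timeless by 0.96 and the flap endonuclease Fen1 by 0.80. A list of 34 other regulators was set beside G1 control and is not limited to genes that act in G1. Of these 10 rose, with Ccnh at 1.07, Ccng1 at 0.75 and Mnat1 at 0.59. The 7 that fell included Pkmyt1 at -0.96, Mycn at -0.90 and Cdc25a at -0.59.

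From E13 to E14 the same lists gave 8 other mitotic genes higher (Cit 0.73, Kif18b 0.61 and Ncaph2 0.46) and 16 lower (Kif20b -1.06, Cenpk -0.85 and Kif15 -0.80). Of the other S phase genes 3 were higher (Ung 0.65, Tk1 0.53 and Timeless 0.52) and 10 lower (Ccne2 -0.99, Nasp -0.97 and Pola1 -0.88). In the list beside G1 control 2 were higher (Myc 0.79 and E2f1 0.53) and 10 lower, with E2f5 at -0.62, Chek1 at -0.60 and Mnat1 at -0.58. The list medians were -0.05 for mitosis, -0.14 for S phase and -0.06 for the list beside G1 control. From E14 to E16 they were 0.08, 0.12 and 0.18, so the other S phase genes did not share the negative median of the 11 S phase members.

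**Figure D4:**
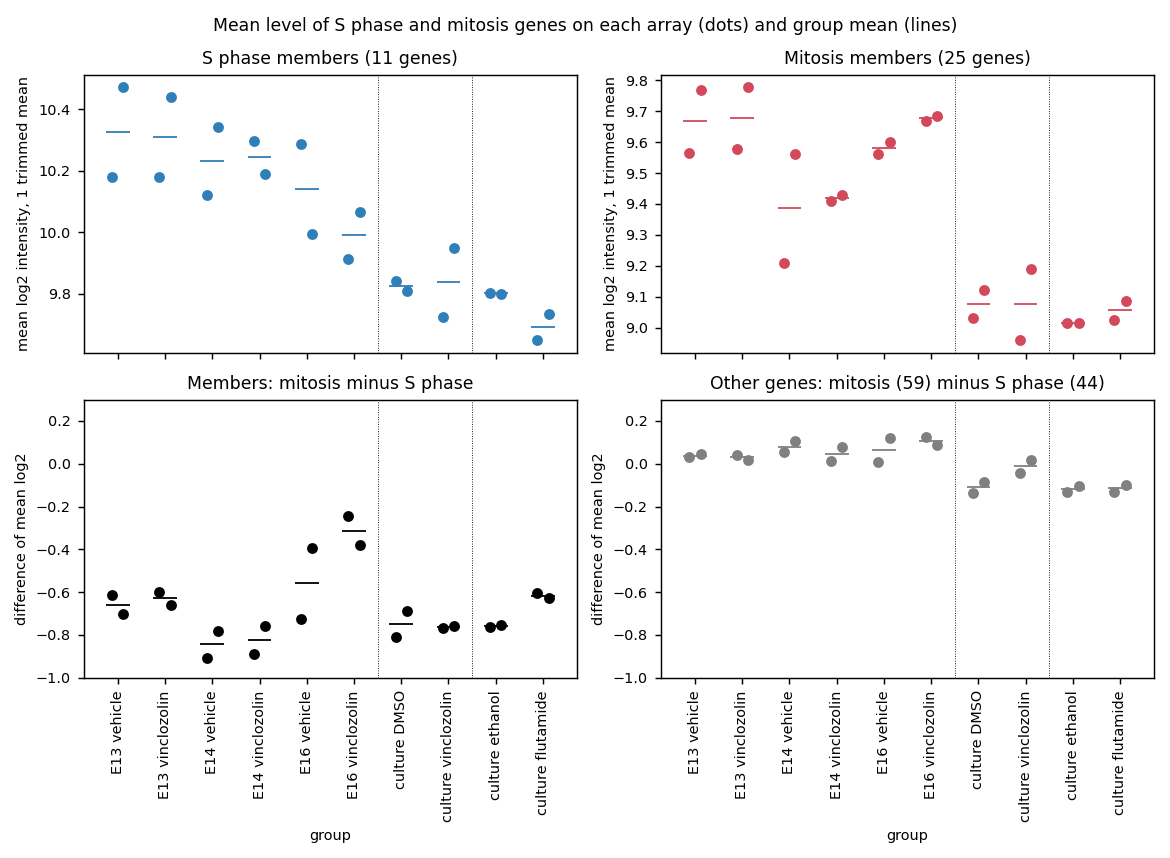
Upper panels: mean log2 intensity of the S phase and mitotic members on each array (dots, with group means as lines), all arrays at 1 trimmed mean. Lower panels: mitosis minus S phase within each array, on the scale as deposited, for the members and for 59 and 44 other genes; the members lie at -0.91 to -0.76 at E14 and at -0.72 to -0.24 at E16, while the other genes stay between 0.01 and 0.13 at both stages.

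Culture was set beside the in utero testes as a description only, since the sets were scaled separately and share no arrays; all arrays were brought to 1 trimmed mean and no test was made. After 3 days with DMSO, 38 of 44 members were lower than in E13 vehicle testes, with a median log2 difference of -0.60, while 48.3% of all probe sets were lower and their median was 0.02. Against E16 vehicle testes, the age that the cultured gonads would have reached, 37 of 44 were lower, with a median of -0.45 (all probe sets 0.05, 46.7% lower). With ethanol, 41 of 44 were lower than at E13 (median -0.58, all probe sets 0.14, 41.8% lower) and 39 of 44 lower than at E16 (median -0.48, all probe sets 0.19, 39.6% lower). Under quantile normalization, which brought the median of all probe sets to -0.02 with DMSO and 0.00 with ethanol, the members' medians against E13 were -0.57 and -0.50.

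Both S phase and mitotic members were lower in culture. Against E13 the medians with DMSO were -0.51 for the 11 S phase genes, all 11 of them lower, and -0.69 for the 25 mitotic genes, 22 of them lower. With ethanol they were -0.57 (11 lower) and -0.62 (24 lower). Aurora B (Aurkb), a kinase of chromosome segregation, was at -1.14 with DMSO and -1.35 with ethanol, and Ccnb1 at -0.83 and -1.20. Pcna was at -0.15 and -0.42, and Mki67 at -0.73 and -0.18, the first and the last of these with overlap. Ccnd1 was at -1.63 with DMSO but at -0.32 with ethanol, and Cdkn1a was higher, at 0.29 and 0.60, the DMSO arrays overlapping E13. The other mitotic genes gave medians of -0.60 with DMSO (54 of 59 lower) and -0.64 with ethanol (52 of 59 lower), and the other S phase genes -0.43 (36 of 44) and -0.49 (38 of 44). Cell type markers differed as well, in summed intensity as deposited. On the DMSO and vinclozolin arrays erythroid markers summed to 363 to 506 (931 to 5977 at E13), germ cell markers to 128 to 218 (309 to 432) and endothelial markers to 983 to 1106 (1733 to 2325). Sertoli markers on these arrays summed to 14211 to 15489, against 1950 to 4734 at E13. On the ethanol and flutamide arrays, whose scale is lower, the 4 lists summed to 957 to 1577, 121 to 165, 807 to 871 and 4911 to 5741. The ethanol arrays also had the high actin ratios, the Xist signal and the low Eif2s3y given above. The part of tissue makeup, RNA quality, scaling and the separate experiments in these differences was not tested. Within arrays, mitosis minus S phase was -0.81 to -0.69 with DMSO and -0.76 on both ethanol arrays, on the scale as deposited.

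The antiandrogen comparisons called no member. For vinclozolin in utero, limma called 0 of 44 at E13, E14 and E16 and in the mean of the stages, where 0%, 0.00444%, 0% and 0% of all probe sets were called. At an unadjusted p under 0.05 there were 2, 3, 4 and 2 members, and 402, 1239, 1506 and 923 probe sets. In culture 0 of 44 were called for vinclozolin and 0 of 44 for flutamide, where 0% and 0% of probe sets were called, with 1 and 1 members and 610 and 494 probe sets at an unadjusted p under 0.05. Without adjustment for the number of tests, the median 95% interval of a member reached 0.44 log2 to either side with 2 against 2 arrays. In the mean of the stages it reached 0.26. Effects within these widths could not be resolved. Larger differences also failed to pass adjustment, such as 0.94 for Nedd1 at E16 (adjusted p 0.508 by limma), so larger effects could be missed as well. The F test of whether the vinclozolin effect differs between stages called 0 members, with 3 at an unadjusted p under 0.05, and 0% of probe sets.

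List medians under vinclozolin lay between -0.17 and 0.07. For mitosis they were 0.00 at E13, 0.00 at E14 and 0.02 at E16, for S phase -0.04, 0.07 and -0.17, and for G1 control -0.08, -0.12 and -0.13. At E16, 10 of the 11 S phase members lay below 0, where the median of all probe sets was 0.04. The share of all probe sets below 0 was not counted. The mean level of the 11 genes was 10.285 on vehicle 1 and 9.994 on vehicle 2 of E16. On the vinclozolin arrays it was 9.913 and 10.067, so vehicle 2 lay between them. In the mean of the stages, which includes these E16 arrays, 10 of 11 lay below 0 with a median of -0.07, against 0.01 over all probe sets. In culture the medians for mitosis, S phase and G1 control were 0.02, 0.07 and 0.02 for vinclozolin and 0.05, -0.11 and -0.01 for flutamide. Of the genes most used as marks of proliferation, Mki67 differed with vinclozolin by -0.10 (95% interval -0.53 to 0.32) at E13, 0.00 (-0.43 to 0.42) at E14 and -0.15 (-0.57 to 0.28) at E16. Pcna differed by 0.03 (-0.29 to 0.35), -0.13 (-0.45 to 0.19) and -0.18 (-0.50 to 0.14), and Cdk1 by 0.05 (-0.28 to 0.38), -0.07 (-0.41 to 0.26) and -0.10 (-0.43 to 0.23).

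In culture, Mki67 read 1031 and 1273 with DMSO and 941 and 1101 with vinclozolin, then 838 and 813 with ethanol and 906 and 839 with flutamide. The vinclozolin pair overlapped and the flutamide arrays lay above the ethanol arrays. Its differences were -0.17 (95% interval -0.59 to 0.26) and 0.08 (-0.35 to 0.50). Pcna differed by 0.07 (-0.24 to 0.39) with vinclozolin and by -0.08 (-0.40 to 0.23) with flutamide, and Cdk1 by 0.01 (-0.32 to 0.34) and -0.12 (-0.45 to 0.21). Ccnd1 was at 0.01 (-0.50 to 0.52) and -0.01 (-0.53 to 0.50), and Cdkn1a at 0.02 (-0.59 to 0.63) and -0.09 (-0.70 to 0.53). All of these intervals include 0.

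The members of smallest unadjusted p are given next as values that did not pass. At E13 these were Ccnd2 (1.17, SE 0.51, p 0.0352), which rests on the low vehicle array of 239, Smc4 (0.54, SE 0.25, p 0.0437) and Ccnd1 (-0.34, SE 0.24, p 0.184), each with an adjusted p of 1. At E14 they were Cenpt (0.81, SE 0.22, adjusted p 0.888), with 139 and 176 on the vehicle and 366 and 225 on the vinclozolin arrays, Tyms (-0.37, SE 0.16) and Kif11 (-0.35, SE 0.16). At E16 they were Nedd1 (0.94, SE 0.25, adjusted p 0.508), a centrosomal protein that recruits gamma-tubulin, with 40.4 and 42.8 on the vehicle and 87.2 and 102 on the vinclozolin arrays, then Cenpt (0.60, SE 0.22) and Smc4 (0.69, SE 0.25), both with an adjusted p of 0.621. In the mean of the stages they were Cenpt (0.46, SE 0.13, adjusted p 0.998 by limma), Nedd1 (0.39, SE 0.14) and Smc4 (0.30, SE 0.14). A second probe set for Smc4 gave 0.184 at E13, -0.176 at E16 and -0.015 in the mean of the stages. Nedd1's vehicle values at E16 lay near the 40th percentile of their arrays (34.4 and 35.8), the level used as the filter.

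In culture, Smc4 read 215 and 425 with DMSO and 186 and 200 with vinclozolin, against 41.9 and 40.9 with ethanol and 100 and 80.3 with flutamide. Both arrays of a compound lay on the same side of both vehicle arrays, lower with vinclozolin and higher with flutamide. The differences were -0.61 (SE 0.25, unadjusted p 0.0253) and 0.88 (SE 0.25, unadjusted p 0.00257), each with an adjusted p of 1. A second probe set for Smc4 gave 0.08 and -0.17. After Smc4 came Nedd1 (-0.49, SE 0.25) and Tyms (-0.30, SE 0.16) for vinclozolin and Rrm1 (-0.20, SE 0.16) and Ccnb1 (-0.22, SE 0.18) for flutamide, all with an adjusted p of 1. The 2 compounds differ in dose, vehicle and array set, so their values stand side by side; the test of the difference of their effects called 0 of 44 members and 0% of probe sets, with 1 member (Smc4, -1.49, SE 0.35, adjusted p 1) and 563 probe sets at an unadjusted p under 0.05.

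**Figure D5:**
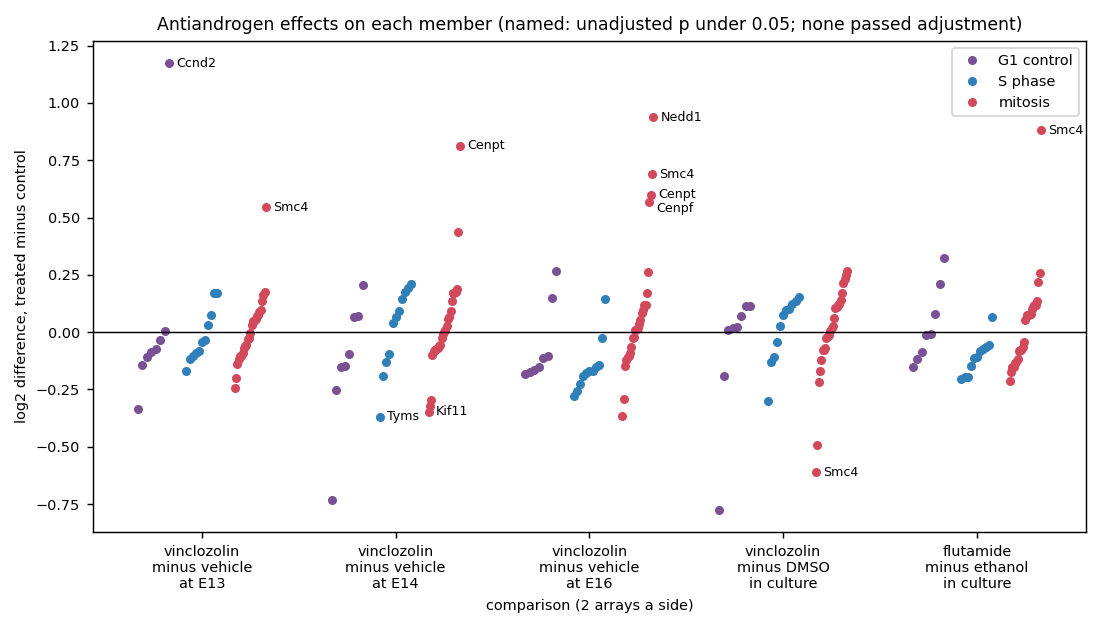
Log2 difference between treated and control arrays (y axis) of each member in the 5 antiandrogen comparisons (x axis, 2 arrays a side), coloured by class; genes with an unadjusted p under 0.05 are named. No member passed adjustment, and the class medians lie between -0.17 and 0.07.

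The other genes of the same processes gave the same count. None of the 44 other S phase genes, the 59 other mitotic genes and the 34 genes listed beside G1 control was called by limma in any antiandrogen comparison. At most 4 of a list had an unadjusted p under 0.05 by limma. Within arrays, mitosis minus S phase was -0.72 and -0.40 on the vehicle arrays of E16 and -0.24 and -0.38 on the vinclozolin arrays. The closest arrays of the 2 groups, at -0.40 and -0.38, nearly met. The group means were -0.56 and -0.31, a gap near the array spread of the vehicle group (SD 0.23, n = 2). In the flutamide culture mitosis minus S phase was -0.76 on both ethanol arrays and -0.61 and -0.63 on the flutamide arrays. This gap was larger than the array spread of either group (SD 0.006 and 0.017, n = 2 each). Spread over 2 arrays is itself uncertain, and the same SD was 0.086 with DMSO. The other genes gave no such gap, with -0.13 and -0.10 on the ethanol and -0.13 and -0.10 on the flutamide arrays. In the vinclozolin culture the groups overlapped for the members. There the other genes lay at -0.136 and -0.085 with DMSO and at -0.043 and 0.018 with vinclozolin.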

How the data were processed

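Total RNA of 20 rat testis samples was hybridized to Affymetrix arrays. Per the submitters' processing notes, MAS5 (in GCOS for the cultures) gave the deposited signal intensity, a linear value per probe set, with versions not given in the sources used here. Within each experiment the trimmed mean (2% left out at each end) did not differ between arrays, as checked on the tables. Control probe sets (57 of 31099) were left out. Log2(intensity + 16) went into 1 limma fit (version 3.58.1, R 4.3.3) over all 20 arrays, which gave each group its own mean, used a variance trend and left 10 residual degrees of freedom, so every log2 difference is on that scale. Tests covered the 22526 probe sets that lay at or above an array's 40th percentile on 2 or more arrays. P-values are two-sided, adjusted by Benjamini-Hochberg over all of these, threshold 0.05. The median SE was 0.24 for 2 against 2 arrays and 0.17 for 4 against 4; the number of arrays limits the precision. The fit was tested on simulated data.

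The members and lists were chosen with earlier results of these data known. All 44 measured members could be named. Array values were given for Mki67, Pcna, Cdk1, Ccnd1, Ccnd2, Cdkn1a and, per class and comparison, the 5 called members of largest change in each direction. Where none was called, the 3 of smallest p were named, and of the other lists the 3 of smallest p in each direction. The labels do not say that a replicate number marks shared animals. Alternatives covered normalization, pseudocount, filter, probe set, arrays fitted and a block.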

Additional observations from a re-analysis of the deposited data

Results flagged for a closer look

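The members named here were sought only among the 3 of smallest p in each antiandrogen comparison. They were picked out because both arrays of a group moved one way in 1 comparison and the opposite way in another. Groups did not overlap for 12 of 44 members with vinclozolin and 20 of 44 with flutamide in culture, 5 at E14 and 18 at E16. The share over all probe sets was not counted, so these counts cannot be read as a result about the members. The test of the difference called none of the members named here.
Smc4 differed by -0.61 with vinclozolin and by 0.88 with flutamide in culture; the difference of the effects was -1.49 (SE 0.35, adjusted p 1 by limma), and a second probe set gave 0.08 and -0.17. Ccnd2 differed by -0.78 with vinclozolin and 0.32 with flutamide in culture, a difference of -1.10 (95% interval -2.63 to 0.43). Ccnb1 differed by 0.11 and -0.22 in the same cultures, a difference of 0.32 (-0.21 to 0.86). In utero, Kif11 differed with vinclozolin by -0.35 at E14 and 0.082 at E16, and the F test over the stages gave an adjusted p of 0.983 by limma.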

How the results depend on the processing

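In every alternative run, 0 members were called in each antiandrogen comparison. Stage counts depended on the arrays used. The counts in this section are given without the share of all probe sets called in the same run. They therefore do not show whether the members changed apart from probe sets at large. From E13 to E14, the 16 calls became 3 in the vehicle groups alone and 8 with only the arrays of the comparison, and leaving out 1 array gave 10 to 17 (10 without replicate 2 of either E13 group). From E14 to E16, the 29 calls became 10 in the vehicle groups alone and 20 to 30 with 1 array left out. From E13 to E16, the 7 calls became 3 without the variance trend, 3 in the vehicle groups alone, 4 with only the in utero arrays, and 3 to 12 with 1 array left out. That range was 4 without vehicle 2 of E13, 12 without vehicle 1 of E16, and 3 without any other array of E16. Of the calls, 9 of 16, 18 of 29 and 3 of 7 held in each fit that left out 1 array, and 2, 9 and 2 in every alternative. No difference of a named call changed sign.

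The replicate number as a block gave 16, 30 and 9 calls for these steps. Same-numbered arrays deviated together at E13 (correlation 0.602) but not at E14 (-0.06) or E16 (-0.11), so the numbers were not taken as pairs. With the E16 numbers crossed, chosen after seeing the data, the block gave 31 calls from E14 to E16 and 12 from E13 to E16. The rescaling to 1 trimmed mean and the fits without vehicle 1 and vinclozolin 2 of E14 were also chosen after seeing the data. For cultures with DMSO against E13, quantile normalization gave a member median of -0.57. The rise of mitosis minus S phase from E14 to E16 was 0.38 to 0.44 over its alternatives. The causes of these changes were not tested. With 2 arrays a group, signals near the filter level, such as those of Nedd1, limit what can be resolved.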
